A study of Mus musculus with 6 samples.

Results

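The insulin-like growth factor (IGF) binding protein family was examined in astrocytes sorted from the brains of vehicle- and streptozotocin (STZ)-treated mice. Its 8 members, Igfbp1 to Igfbp7 and Igfbpl1, were chosen by their gene symbols among the 45777 genes in the expression table, and the choice of this family was made with earlier STZ and vehicle results of the same samples known. The comparisons between the groups therefore describe the members and are not independent evidence about them. Of the 8 members, 7 had at least 1 count in every sample and entered the test, which covered 22337 genes.

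The mice carried Aldh1l1 CreERT2 and tdTomato fl/fl alleles on a C57BL/6 background, although the genotype is given as WT in the sample labels. Tamoxifen for 5 days switched on the red protein tdTomato in cells that used the Aldh1l1 promoter. At 8 weeks of age, male mice received either STZ, which kills the beta cells of the pancreas, or the citrate buffer it was dissolved in (vehicle), as 1 injection. STZ-treated mice with high fasting blood glucose were kept, and brains were taken 21 days after the injection. Each of the 3 vehicle and 3 STZ samples held the tdTomato+ cells from 3 mice together, so that differences between single mice cannot be seen. All groups share the alleles and the tamoxifen. Depth was 52529048 to 58749115 counts per sample, and 3 counts in a sample, taken as the floor of detection, corresponded to 0.0511 to 0.0571 CPM (counts per 1000000 counts). Such a floor covers counting error only.

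IGF binding proteins 1 to 6 are secreted proteins that bind IGF1 and IGF2 tightly outside the cell, carry them, and keep them from or deliver them to the IGF1 receptor. Proteases cut the binding proteins and free the ligand. Igfbp7 shares part of the fold but binds IGFs weakly and is deposited around vessels, and Igfbpl1 is a related secreted protein of immature neurons. In brain, Igfbp2 is known from astrocytes, choroid plexus and leptomeninges, while the liver product Igfbp1 is known as a gene that insulin represses.

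The markers of astrocytes were abundant in every sample (8 genes, summed level 13941 to 16910 TPM, that is, transcripts per 1000000 transcripts, a level per gene length). The samples also held RNA of other cell types. Markers of the choroid plexus epithelium summed to 10696 to 30094 TPM, those of oligodendrocytes to 440 to 1972 TPM, those of microglia to 511 to 794 TPM, those of endothelium to 87.6 to 576 TPM and those of fibroblasts and leptomeninges to 28.7 to 62.6 TPM. Vehicle replicate 1 had the lowest mean log2 CPM of the 6 samples for the endothelial, pericyte and smooth muscle, fibroblast, choroid plexus, ependymal and neuroblast markers. It had the highest for the astrocyte, oligodendrocyte, oligodendrocyte precursor and microglia markers. Differences of the members and of the marker lists set beside them are given with and without this sample.

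The family lay on 5 chromosomes, with coordinates from RefSeq (GRCm38, the build called mm10). Igfbp1 (chr11:7197787-7202546, plus strand) and Igfbp3 (chr11:7206086-7215498, minus strand) were neighbours with their 3′ ends facing each other 3539 bases apart. Igfbp2 (chr1:72824480-72852474, plus strand) and Igfbp5 (chr1:72858065-72874865, minus strand) formed a second tail-to-tail pair, 5590 bases apart. Igfbp4 (chr11:99040005-99052655, plus strand), Igfbp6 (chr15:102144186-102149512, plus strand), Igfbp7 (chr5:77349240-77408045, minus strand) and Igfbpl1 (chr4:45809507-45826827, minus strand) lay apart from them. The longest GENCODE transcript had 4 exons for Igfbp1, Igfbp2, Igfbp4, Igfbp5 and Igfbp6, 5 for Igfbp3 and Igfbpl1, and 6 for Igfbp7.

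The 3 members shown here mark the extremes of the family in these samples, and the 250 bases before their RefSeq start are printed (GRCm38.p6). They are Igfbp1, which was barely detected (chr11:7197537-7197786, plus strand), Igfbp2, the most abundant member (chr1:72824230-72824479, plus strand), and Igfbp3, with the largest difference between the groups (chr11:7213924-7214173, minus strand). Capitals mark the letters of a motif that was searched for on both strands.
Igfbp1: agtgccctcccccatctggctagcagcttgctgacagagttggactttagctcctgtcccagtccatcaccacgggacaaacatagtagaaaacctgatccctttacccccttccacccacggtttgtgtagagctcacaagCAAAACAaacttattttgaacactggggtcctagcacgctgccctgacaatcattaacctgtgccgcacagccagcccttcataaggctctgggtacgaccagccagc
Igfbp2: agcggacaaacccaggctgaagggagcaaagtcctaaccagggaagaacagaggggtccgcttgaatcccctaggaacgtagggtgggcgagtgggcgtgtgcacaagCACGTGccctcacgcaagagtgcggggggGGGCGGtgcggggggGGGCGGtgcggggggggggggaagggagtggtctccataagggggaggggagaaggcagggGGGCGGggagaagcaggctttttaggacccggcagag
Igfbp3: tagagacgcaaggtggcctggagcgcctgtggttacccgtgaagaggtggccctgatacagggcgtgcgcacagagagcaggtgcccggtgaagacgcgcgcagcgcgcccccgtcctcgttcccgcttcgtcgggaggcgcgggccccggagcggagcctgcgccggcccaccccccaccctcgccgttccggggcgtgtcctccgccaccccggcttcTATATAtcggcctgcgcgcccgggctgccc
The start used for Igfbp3 lies inside the span of the gene, because another RefSeq model of it begins further upstream. The start used for Igfbp4, whose window is not printed, lies inside the span of its gene as well.

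The motifs were CAAAACA, which belongs to the insulin response sequence known from the Igfbp1 promoter, the TATA box in the form TATAAA or, as the other form, with the letters TATATA, the GC box, written GGGCGG on the given strand, and the core of a hypoxia response element, which is ACGTG in letters. The other TATA form reads the same on both strands and can overlap the first one. Of 32851 RefSeq promoter windows of the same length, 5.56% held the insulin response letters, 12.4% the first TATA form, 5.25% the other TATA form, 32.7% the GC box and 16.6% the hypoxia core. The insulin response letters began 108 bases before the start of Igfbp1 and were not found in the first-listed windows of the other members. Igfbp3 held the other TATA form 30 bases before its start, and Igfbp4 held the first form at 28 bases. Igfbp2 held the GC box at 37, 98 and 113 bases and the hypoxia core on both strands at 141 and 142 bases. Igfbp7 held the GC box on either strand at 44, 74, 96 and 110 bases and the hypoxia core at 175 bases. Igfbp6 held the first TATA form on the other strand at 148 bases, and Igfbp5 held none of the searched motifs. The window of Igfbp3 was 73.2% G and C, that of Igfbp2 67.2% and that of Igfbp1 53.2%, beside a median of 52.4% over all windows. A match of letters describes the window and does not mark a site in use. The promoter table had no entry for Igfbpl1.

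Igfbp2 was by far the most abundant member, with a mean of 1199 TPM over the 6 samples, a level above that of 99.7% of the 32431 genes with any count. Igfbp7 followed at 79.7 TPM (34.3 to 109), then Igfbp4 at 20.2 TPM (14.4 to 24.9) and Igfbp5 at 19.3 TPM (15.4 to 22.6). Igfbp6 was at 11.4 TPM (1.86 to 22.5), Igfbpl1 at 8.64 TPM (4.95 to 10.5) and Igfbp3 at 3.23 TPM (0.138 to 9.63). The ranges of Igfbp2, Igfbp7 and Igfbp4 did not overlap. Over the 6 samples each member from Igfbp4 down to Igfbpl1 overlapped the next one in the order. Within the vehicle samples, Igfbp5 (21.3 to 22.6 TPM) did not overlap Igfbp6 (1.86 to 12.5 TPM), and Igfbpl1 (4.95 to 10.1 TPM) did not overlap Igfbp3 (0.138 to 0.881 TPM). Igfbpl1 was above Igfbp3 in each of the 6 samples.

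**Figure D1:**
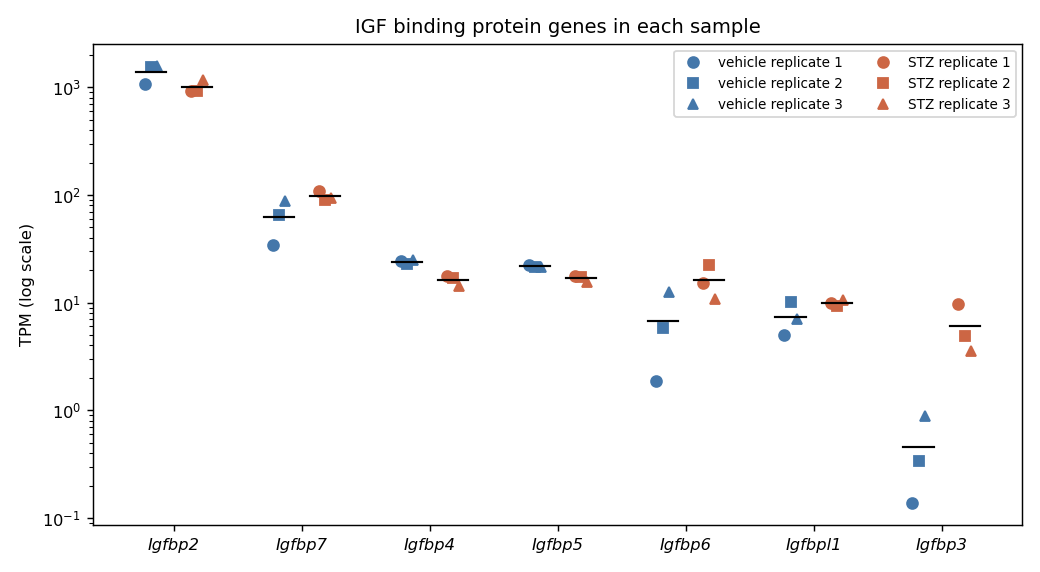
TPM of 7 members in each sample on a log axis, with vehicle in blue, STZ in orange, a marker shape per replicate and a black bar at each group's mean. Igfbp2 lies between 918 and 1580 TPM in all 6 samples, and Igfbp3 is the member whose groups lie farthest apart (0.138 to 0.881 TPM against 3.55 to 9.63 TPM).

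Which members differ between STZ-treated and vehicle astrocytes was asked with edgeR's quasi-likelihood test on the counts of all 22337 genes (3 samples per group). A gene was called when its p, adjusted over all genes by the Benjamini-Hochberg method, was under 0.05 and its fold change over 1.5. Igfbp3 was higher and Igfbp4 and Igfbp5 were lower in the STZ samples with no overlap between the groups, and the groups of Igfbp2, Igfbp6, Igfbp7 and Igfbpl1 overlapped. EdgeR called 0 of the 7 tested members, beside 0.0224% of all genes tested. DESeq2, the tool of the study, called Igfbp3 alone with the same thresholds (1 to 3 members with a sample left out), beside 1.27% of the genes to which it gave an adjusted p. With no limit on the fold, DESeq2 gave Igfbp3, Igfbp4 and Igfbp5 an adjusted p under 0.05, beside 2.08% of genes. The groups did not overlap for 3 of 7 members, beside 18.5% of all genes, and 4 of 7 had an unadjusted edgeR p under 0.05, beside 11.3%. The median log2 fold change (STZ over vehicle) was 0.41 over the 7 members and 0.01 over all genes tested.

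**Figure D2:**
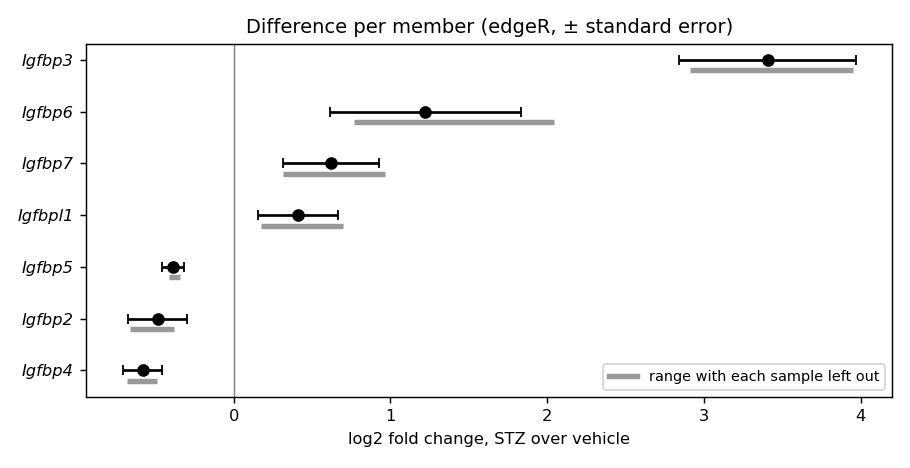
Log2 fold change of STZ over vehicle for the 7 tested members from edgeR (black points, bars of 1 standard error), with a grey bar for the range when each of the 6 samples was left out in turn. Igfbp3 stands at 3.40, Igfbp4, Igfbp2 and Igfbp5 lie between -0.58 and -0.39, and no range crosses 0.

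Igfbp3 carries most of the IGF in blood together with the acid-labile subunit Igfals, and it can also act on cells without IGF. Its read counts were 13, 32 and 59 in vehicle replicates 1 to 3 and 644, 319 and 238 in STZ replicates 1 to 3. In CPM normalized for library composition these were 0.242, 0.616 and 1.03 against 10.6, 5.48 and 4.05. Every STZ sample lay above every vehicle sample, and the lowest STZ sample was well above the highest vehicle sample. The log2 fold change was 3.40 (SE 0.563), a 10.6-fold difference and the second largest positive value among all 22337 genes tested. EdgeR gave an unadjusted p of 0.000385 and an adjusted p of 0.169, while the adjusted p of DESeq2 was 1.38e-10. With 1 sample removed at a time, it ran from 2.91 (without STZ replicate 1) to 3.95 (without vehicle replicate 3), and the adjusted p of edgeR from 0.181 to 0.485. Without vehicle replicate 1 the value was 3.02. DESeq2, also run with each sample left out after the data were seen, called Igfbp3 in all 6 of these fits, with adjusted p from 1.17e-11 to 5.46e-05.

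Endothelial markers were set beside Igfbp3. All 12 (among them Cldn5, a tight junction protein, and Flt1, a VEGF receptor) had a higher fitted value in STZ samples, with a median log2 fold change of 1.16 (0.89 without vehicle replicate 1 and 1.76 without vehicle replicate 3, with all 12 higher in both fits). Of the 12, 10 had an unadjusted edgeR p under 0.05, 0 were called by edgeR and 1 (Abcb1a, an efflux pump of the barrier) by DESeq2, which called all 12 without vehicle replicate 3 and 0 without vehicle replicate 1. Their summed level was 78.5, 114 and 259 CPM in the vehicle samples and 462, 345 and 255 CPM in the STZ samples, so that vehicle replicate 3 and STZ replicate 3 were alike. In those 2 samples Igfbp3 stood at 1.03 and 4.05 CPM. Divided by the endothelial sum, Igfbp3 was 0.00309, 0.00539 and 0.00398 in vehicle and 0.0230, 0.0159 and 0.0159 in STZ samples. This ratio was 4.39-fold higher in STZ samples with no overlap, beside a 2.35-fold difference of the endothelial sum and a 10.7-fold difference of the mean CPM of Igfbp3. The ratio assumes that the cells made the RNA of all 12 markers alike, which was not tested. Igfbp3 and the endothelial score (the mean log2 CPM of the 12 markers) ranked the samples in nearly the same order. Since the Igfbp3 values fall into separate groups, its correlation with this score over the 6 samples is not given here. After each group's mean was taken out, the deviations of Igfbp3 and of the score had a Pearson r of 0.93 over the 6 samples.

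Contractile genes of vascular smooth muscle were among the markers compared next. Of 8 tested pericyte and smooth muscle markers, 7 had higher fitted values in STZ samples (median log2 fold change 0.95; 6 of 8 and 0.62 without vehicle replicate 1). DESeq2 called 4 of them, Rgs5, Acta2, Tagln and Myh11, and edgeR 0, with 4 at an unadjusted p under 0.05. Anpep, a ninth marker, had a count of 0 in at least 1 sample. The summed level of all these markers was 136 to 183 CPM in vehicle and 175 to 230 CPM in STZ samples. Pdgfrb and Vtn were the most abundant, at means of 77.8 and 41.5 CPM, and differed by -0.08 and 0.07 on the log2 scale, with overlap. Rgs5, Acta2, Tagln and Myh11 differed by 1.02, 1.30, 2.65 and 1.43 without overlap, so the sum understates them. Among the 16251 genes with a mean of at least 1 CPM, the pattern of log2 CPM over the 6 samples most like that of Igfbp3 was that of Myl9, a smooth muscle myosin light chain (Pearson r 0.997), followed by Prom1 (0.994). These are descriptions over 6 samples that share their libraries. The r values of the most alike genes, here and below, are the highest among all genes compared and include the difference between the groups. The part of vascular cells in the Igfbp3 difference was not tested. The ratio above takes the endothelial markers only, and none was formed with the pericyte and smooth muscle markers. In sorted pools, fewer cells of a type and less RNA per cell cannot be told apart.

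Igfbp4 inhibits IGF action until pappalysin-1 (Pappa) cuts it. It stood at 22.9, 23.2 and 26.6 CPM in vehicle replicates 1 to 3 and at 18.3, 16.2 and 14.0 CPM in STZ replicates 1 to 3. The highest STZ sample lay below the lowest vehicle sample. The log2 fold change was -0.58 (SE 0.126), a fold of 1.49 that lies just under the limit of 1.5, with an adjusted p of 0.240 in edgeR and 0.00763 in DESeq2. Leaving out each sample gave -0.68 to -0.49. DESeq2 called it without vehicle replicate 1 (adjusted p 0.00786), vehicle replicate 2 (0.0389) or STZ replicate 1 (0.00135), where the fold passed the limit. Without STZ replicate 2 the fold also just passed it (log2 fold change -0.585), but the adjusted p of DESeq2 was 0.0717. Without vehicle replicate 3 or STZ replicate 3 the fold stayed under the limit.

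Igfbp5, which binds IGFs and extracellular matrix, had the tightest replicates of the family. Its values were 59.2, 58.1 and 59.5 CPM in vehicle and 46.6, 46.5 and 42.2 CPM in STZ samples. The vehicle samples varied by 1.32% (coefficient of variation) and the STZ samples by 5.60%, and the groups did not overlap. The log2 fold change was -0.39 (SE 0.0697), with an adjusted p of 0.189 in edgeR and 0.0121 in DESeq2, and it lay between -0.41 and -0.34 when each sample was left out. Both genes lay lower in STZ samples while most vascular markers lay higher. Divided by the endothelial sum, Igfbp4 was 0.103 to 0.291 in vehicle and 0.0397 to 0.0552 in STZ samples. Igfbp5 divided by the pericyte and smooth muscle sum was 0.325 to 0.435 against 0.202 to 0.241. Both ratios follow from a lower member over a sum with a higher mean, and they add nothing to the values above. After each group's mean was taken out, r with the score of the same markers was 0.83 for Igfbp4 and 0.46 for Igfbp5. The part of vascular cells in the 2 genes was not tested.

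Of the astrocyte markers, 3 had higher and 5 lower fitted values in STZ samples, with a median log2 fold change of -0.11. Neither tool called any of the 8 (0 by edgeR, with 1 higher and 2 lower at an unadjusted p under 0.05, and 0 by DESeq2). The lower ones with no overlap were Aldh1l1, Aqp4, the water channel of the endfeet, and Slc1a2, a glutamate transporter, at -0.22, -0.48 and -0.11. Aqp4 had an adjusted p of 0.280 in edgeR and 0.0169 in DESeq2. DESeq2 did not call Aqp4 because its fold (1.39 in edgeR) lay under the limit. Every other astrocyte marker had a DESeq2 adjusted p of at least 0.209. Gjb6 was higher with no overlap, at 0.27. Groups without overlap were found for 18.5% of all genes. The genes most like Igfbp4 over the 6 samples were Ncstn (r 0.996) and Kcnn1 (0.994), and those most like Igfbp5 were Etnk1 (0.995) and Chst2 (0.991).

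Igfbp2 restrains IGF2 in the fluid around brain cells. It stood at 637.6, 941.9 and 992.8 CPM in vehicle and at 548.7, 559.9 and 729.3 CPM in STZ samples. The groups overlapped because vehicle replicate 1 lay below STZ replicate 3. The log2 fold change was -0.48 (SE 0.187), with an adjusted p of 0.407 in edgeR and 0.158 in DESeq2. It ran from -0.66 (without vehicle replicate 1) to -0.38 (without vehicle replicate 3). DESeq2 called Igfbp2 without vehicle replicate 1 (log2 fold change -0.65, adjusted p 0.0016), where the groups no longer overlap, and without STZ replicate 3 (-0.64, adjusted p 0.0378).

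Markers of the choroid plexus epithelium were set beside Igfbp2. All 10 had lower fitted values in STZ samples (median log2 fold change -0.38), with 0 called by either tool and 0 at an unadjusted edgeR p under 0.05. Without vehicle replicate 1 the median was -0.72 with 7 of the 10 at an unadjusted p under 0.05, 0 called by edgeR and 1 by DESeq2, and without vehicle replicate 2 it was -0.14 with 9 of the 10 lower. Their sum was 6194, 17277 and 18153 CPM in vehicle and 11352, 9308 and 16111 CPM in STZ samples, mostly Ttr, the thyroxine carrier transthyretin. Over the 6 samples Igfbp2 and the choroid plexus score had a Pearson r of 0.85 (exact permutation p 0.0514, adjusted over 10 pairs 0.0856) and a Spearman rho of 0.71 (exact permutation p 0.136, adjusted 0.272). Without the 2 samples farthest from the median score, vehicle replicate 1 and STZ replicate 2, r was 0.97, and within the groups it was 0.95. The ratio of Igfbp2 to the choroid plexus sum was 0.0545 to 0.103 in vehicle and 0.0453 to 0.0602 in STZ samples, with overlap. With the fibroblast and leptomeningeal score, r was 0.13 (exact permutation p 0.838, adjusted 0.882). The genes most like Igfbp2 were Rabgap1l (r 0.994) and Sar1a (0.993), a coat GTPase of protein export.

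Igfbp7 is a component of vascular basement membrane. It stood at 17.3, 33.8 and 46.8 CPM in vehicle and at 55.3, 46.4 and 48.9 CPM in STZ samples. The groups touched at STZ replicate 2 and vehicle replicate 3, and on the TPM scale they did not overlap (34.3 to 87.6 against 90.4 to 109). The difference was 0.62 (SE 0.307) on the log2 scale, with an adjusted p of 0.493 in edgeR and 0.271 in DESeq2. It was 0.31 without vehicle replicate 1 and 0.96 without vehicle replicate 3, and in that last fit DESeq2 called Igfbp7 (adjusted p 0.0119). The gene overlaps Polr2b by 85 bases and the antisense gene Gm34648 on the other strand. Counting is not stated to use strand. Over all samples Polr2b had 24156 counts and Gm34648 had 6, beside 14294 for Igfbp7.

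Over the 6 samples Igfbp7 and the endothelial score had a Pearson r of 0.92 (exact permutation p 0.00833, adjusted over 10 pairs 0.0278) and a Spearman rho of 0.77 (p 0.103, adjusted 0.257). Without vehicle replicates 1 and 2, the samples farthest from the median score, r was 0.72, and within the groups it was 0.87. With the pericyte and smooth muscle score r was 0.90 (exact permutation p 0.00556, adjusted 0.0278) and rho was 0.83 (p 0.0583, adjusted 0.257). For the same pair, r without vehicle replicate 1 and STZ replicate 1 was 0.84, and r within the groups was 0.89. This score did not overlap between the groups (2.12 to 2.96 in vehicle and 3.28 to 3.81 in STZ samples). The permutation took no account of group, so its p includes the difference between the groups. Divided by the endothelial sum, Igfbp7 was 0.181 to 0.295 in vehicle (mean 0.232) and 0.120 to 0.192 in STZ samples (mean 0.149), with overlap. Divided by the pericyte and smooth muscle sum, it was 0.127 to 0.256 in vehicle (mean 0.203) and 0.228 to 0.279 in STZ samples (mean 0.249), also with overlap. The means of the 2 ratios thus differed in opposite directions. The genes most like Igfbp7 were Dnah11 and Dnah9 (r 0.998 for each), dynein heavy chains of motile cilia, and 5 of 6 ependymal markers had higher fitted values in STZ samples (median log2 fold change 0.75; 4 of 6 and 0.37 without vehicle replicate 1), with 1 at an unadjusted edgeR p under 0.05 and 0 called by either tool. The ependymal sum was 58.4, 143 and 190 CPM in vehicle and 232, 171 and 146 CPM in STZ samples, and its part in the level of Igfbp7 was not tested.

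Igfbp6, which prefers IGF2, had the most variable CPM of the tested members in the vehicle group (coefficient of variation 81.3%). Its values were 1.08, 3.51 and 7.62 CPM in vehicle and 8.74, 13.3 and 6.53 CPM in STZ samples. STZ replicate 3 lay below vehicle replicate 3, so the groups overlapped. The fitted log2 difference was 1.22 (SE 0.608), with an adjusted p of 0.495 in edgeR and 0.560 in DESeq2. It was 0.77 without vehicle replicate 1 and 2.04 without vehicle replicate 3, and in that last fit DESeq2 called Igfbp6 (adjusted p 0.00113).

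The fibroblast and leptomeningeal markers, among them the collagen genes Col1a1 and Col1a2 and the proteoglycan gene Dcn, had 5 higher and 3 lower fitted values in STZ samples (median log2 fold change 0.26; 6, 2 and 0.03 without vehicle replicate 1), with 0 called by either tool and 0 at an unadjusted p under 0.05. Their sum was 55.9, 72.6 and 92.9 CPM in vehicle and 89.4, 97.7 and 67.4 CPM in STZ samples. Igfbp6 and their score had a Pearson r of 0.93 (exact permutation p 0.0153, adjusted over 10 pairs 0.0382) and a Spearman rho of 0.77 (p 0.103, adjusted 0.257). Without vehicle replicates 1 and 3, the samples farthest from the median score, r was 0.84, and within the groups it was 0.998. Igfbp6 divided by the marker sum was 0.0193, 0.0483 and 0.0820 in vehicle and 0.0977, 0.136 and 0.0969 in STZ samples. That ratio did not overlap between the groups, although Igfbp6 itself did. The sum weighs Col1a2 and Col1a1 most, at means of 35.5 and 12.4 CPM, which differed by 0.11 and -0.11 on the log2 scale. The other markers ran from -0.51 (Slc6a13) to 0.87 (Col3a1), so the ratio depends on the markers summed. The genes most like Igfbp6 were Slc27a3 and Anxa5 (r 0.999 for each).

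Igfbpl1 stood at 6.06, 12.8 and 9.14 CPM in vehicle and at 12.1, 11.7 and 13.4 CPM in STZ samples. The STZ samples were close together, and vehicle replicate 2 lay among them. The log2 fold change was 0.41 (SE 0.254), with an adjusted p of 0.570 in edgeR and 0.532 in DESeq2. It was 0.17 without vehicle replicate 1 and 0.69 without vehicle replicate 2. All 8 neuroblast markers had higher fitted values in STZ samples (median log2 fold change 0.20), with 2 at an unadjusted edgeR p under 0.05 and 0 called by either tool. Without vehicle replicate 1, 4 of the 8 were higher and 4 lower, with a median of -0.02. Their sum was 167, 308 and 264 CPM in vehicle and 357, 282 and 271 CPM in STZ samples. Igfbpl1 and the neuroblast score had a Pearson r of 0.89 (exact permutation p 0.0431, adjusted over 10 pairs 0.0856) and a Spearman rho of 0.60 (p 0.242, adjusted 0.345). Without vehicle replicate 1 and STZ replicate 1 r was 0.53, so the relation rests in part on these samples, and within the groups it was 0.87. The gene most like Igfbpl1 was Elavl4 (r 0.996), an RNA binding protein of young neurons, followed by Nop58 (0.995).

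Igfbp1 had 4 counts in STZ replicate 2 and 0 in the other 5 samples. Its level there was 0.0882 TPM. With counts at or near the floor in both groups, no fold is given and a difference was not detectable at this depth. The insulin-repressed genes of gluconeogenesis were at the floor too, with 0 counts for Pck1 in all samples and 2 counts in vehicle replicate 1 alone for G6pc.

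**Figure D3:**
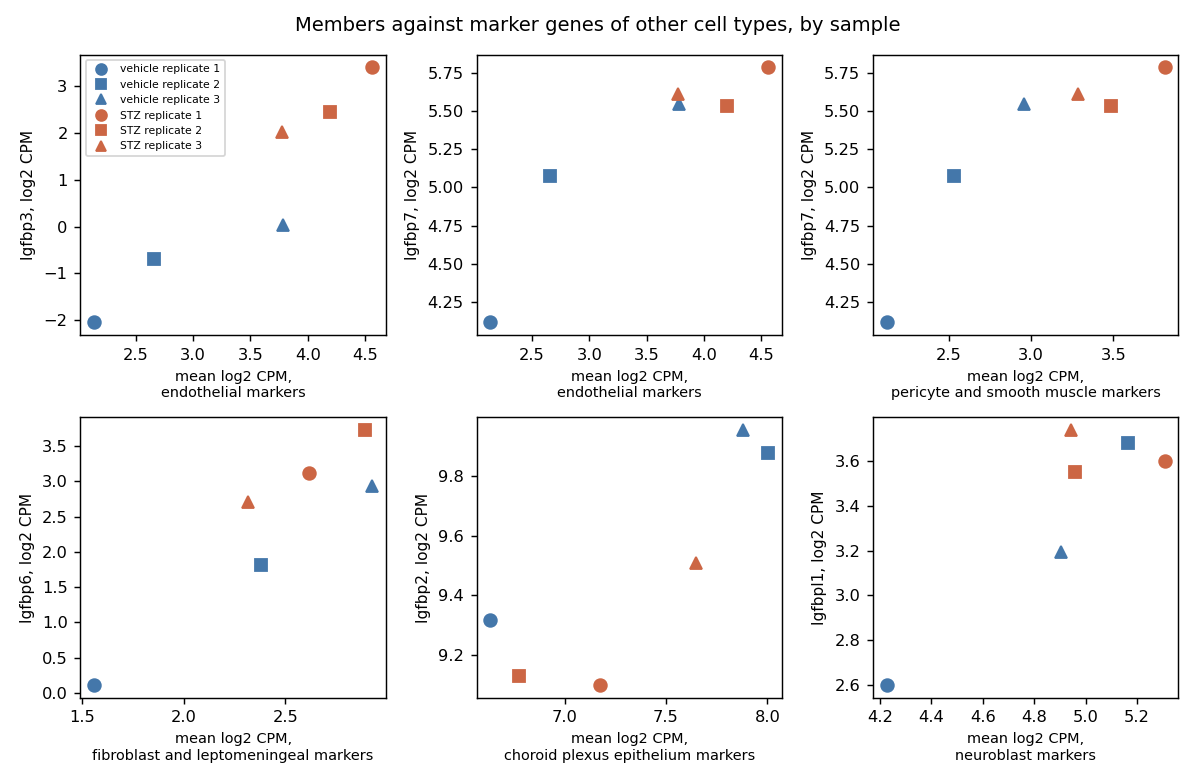
Log2 CPM of a member against the mean log2 CPM of a marker list in each of the 6 samples (vehicle blue, STZ orange, a marker shape per replicate), for 6 of the 10 pairs compared. Vehicle replicate 1 lies at the lower left for Igfbp3, Igfbp6, Igfbp7 and Igfbpl1, and vehicle replicate 3 and STZ replicate 3 share an endothelial score while Igfbp3 stands at 1.03 and 4.05 CPM.

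The family together held 1160, 1651 and 1734 TPM in vehicle and 1097, 1084 and 1325 TPM in STZ samples, with overlap, and most of this was Igfbp2. The share of Igfbp2 was 92.4%, 92.4% and 91.1% in vehicle and 83.7%, 85.1% and 88.9% in STZ samples, and the groups did not overlap. Apart from Igfbp2 the family held 88.1, 124.7 and 154.4 TPM in vehicle and 178.8, 161.5 and 147.5 TPM in STZ samples, with overlap at vehicle replicate 3. Within this remainder, Igfbp4 made up 16.1% to 27.6% in vehicle and 9.74% to 10.5% in STZ samples, and Igfbp5 13.9% to 25.6% against 9.88% to 10.7%. Igfbp3 made up 0.156% to 0.571% against 2.40% to 5.38%. For these 3 members the shares did not overlap. The share of Igfbp7 ran from 38.9% to 56.7% in vehicle and from 56.0% to 62.9% in STZ samples. Each share of this remainder also depends on the levels of the other members in it. As a share of the whole family, Igfbp4 had a mean of 1.63% in vehicle and 1.42% in STZ samples. That of Igfbp5 was 1.49% and 1.46%, and both overlapped between the groups.

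**Figure D4:**
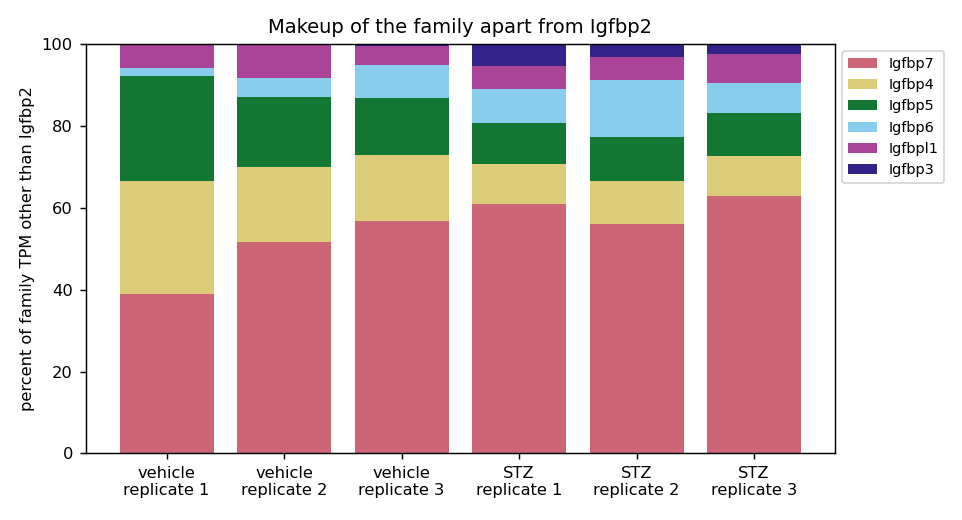
Stacked bars of each member's percent of the family TPM other than Igfbp2 in each sample (Igfbp1, at most 0.0546%, is not drawn). Igfbp7 is the largest part in all 6 samples, and the part of Igfbp4 and Igfbp5 together is smaller in each STZ sample than in each vehicle sample.

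The other genes of the IGF system were described from lists of ligands, receptors, the ternary complex partner, proteases, pappalysin inhibitors, other genes with an IGFBP domain and FOXO targets that insulin represses. Of 41 genes, 33 entered the test. DESeq2 called 1 of them, beside 1.27% of the genes to which it gave an adjusted p, and edgeR called 0. An unadjusted edgeR p under 0.05 was found for 6 higher and 3 lower genes, beside 11.3% of all genes tested. The groups did not overlap for 7 higher and 4 lower genes, beside 18.5% of all tested genes, and the median log2 fold change was 0.06. The 28 genes with a mean of at least 1 CPM are named here.

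Among the ligands, Igf1 stood at 2.57, 3.24 and 3.89 CPM in vehicle and 1.19, 1.79 and 1.33 CPM in STZ samples. It was lower in every STZ sample, with a log2 fold change of -1.17 (SE 0.265) and an adjusted p of 0.253 in edgeR and 0.00645 in DESeq2, which called it. With each sample left out in edgeR, the difference lay between -1.36 and -1.03. Without vehicle replicate 2 or without STZ replicate 1 DESeq2 called 0 IGF system genes (6 at an unadjusted p under 0.05 in each fit). Igf2, a product of leptomeninges and choroid plexus, stood at 15.0, 53.5 and 46.9 CPM in vehicle and 29.5, 21.5 and 35.8 CPM in STZ samples, with overlap (log2 fold change -0.41, SE 0.423). The difference of Igf2 was -0.80 without vehicle replicate 1, where DESeq2 called it (adjusted p 0.0145; edgeR adjusted p 0.331), and -0.11 without vehicle replicate 2. Ins2 was at -0.22 (SE 0.435), at -0.58 without vehicle replicate 1 and at 0.10 without vehicle replicate 2. Ins1 had 0 counts. Igf1 and Igf2 together held 9.79 to 32.9 TPM, and the family held 50.2 to 119 times that level in the 6 samples. The TPM of a transcript is not an amount of protein.

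Among the receptors, Insr was higher without overlap, at 58.0 to 60.3 CPM in vehicle and 64.8 to 74.8 CPM in STZ samples (log2 fold change 0.26, SE 0.075, edgeR adjusted p 0.306). Igf1r, the receptor that the binding proteins keep IGF from, was at 0.24 (SE 0.135) with overlap, and Igf2r, which clears IGF2, at -0.03 (SE 0.15).

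Of the proteases, Htra1 was the most abundant IGF system gene, at a mean of 4570 TPM, and differed by -0.05 (SE 0.105) on the log2 scale. It overlaps Fgfr2 on the other strand. The lysosomal protease Ctsd and the membrane metalloprotease Mmp14 were lower without overlap, at -0.23 (SE 0.098) and -0.22 (SE 0.0769), with edgeR adjusted p of 0.441 and 0.383. Adam9, Adamts1 and Mmp2 were at 0.03, -0.11 and 0.08. Mmp9 varied widely, from 12.6 to 65.1 CPM in vehicle and 29.1 to 79.8 CPM in STZ samples, and its log2 fold change was 0.90, or 2.09 without vehicle replicate 3. Pappa, the protease of Igfbp4, had 19 to 58 counts per sample, and its inhibitor Stc1 was at -0.07 (SE 0.389).

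Of the other genes with an IGFBP domain, 3 were higher without overlap. Ccn2, a matrix protein of vessels and fibroblasts, stood at 0.76, 3.0 and 3.9 CPM in vehicle and 14.0, 8.74 and 6.62 CPM in STZ samples (log2 fold change 1.93, SE 0.55, edgeR adjusted p 0.306). Ccn3 was at 1.57 (SE 0.533) and Htra3, a relative of Htra1, at 0.53 (SE 0.153). Kazald1 was at 0.67, Ccn1 at -0.16 and Crim1 at -0.10, with overlap, and Ccn5 had 0 counts in vehicle replicate 1 and 71 to 182 in the others.

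Among the FOXO targets, Klf15, a transcription factor of fasting metabolism, stood at 209, 204 and 215 CPM in vehicle and 286, 284 and 306 CPM in STZ samples. The replicates were tight and the groups far apart, with a log2 fold change of 0.48 (SE 0.068) and an adjusted p of 0.138 in edgeR and 9.48e-05 in DESeq2, at a fold of 1.39. Sesn1 and Cdkn1b were higher without overlap (0.21 and 0.33), and Pdk4, which restrains glucose oxidation, was lower without overlap (-0.21, SE 0.0929). Irs2, Trib1 and Sesn3 were at 0.15, 0.09 and 0.06 with overlap.

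**Figure D5:**
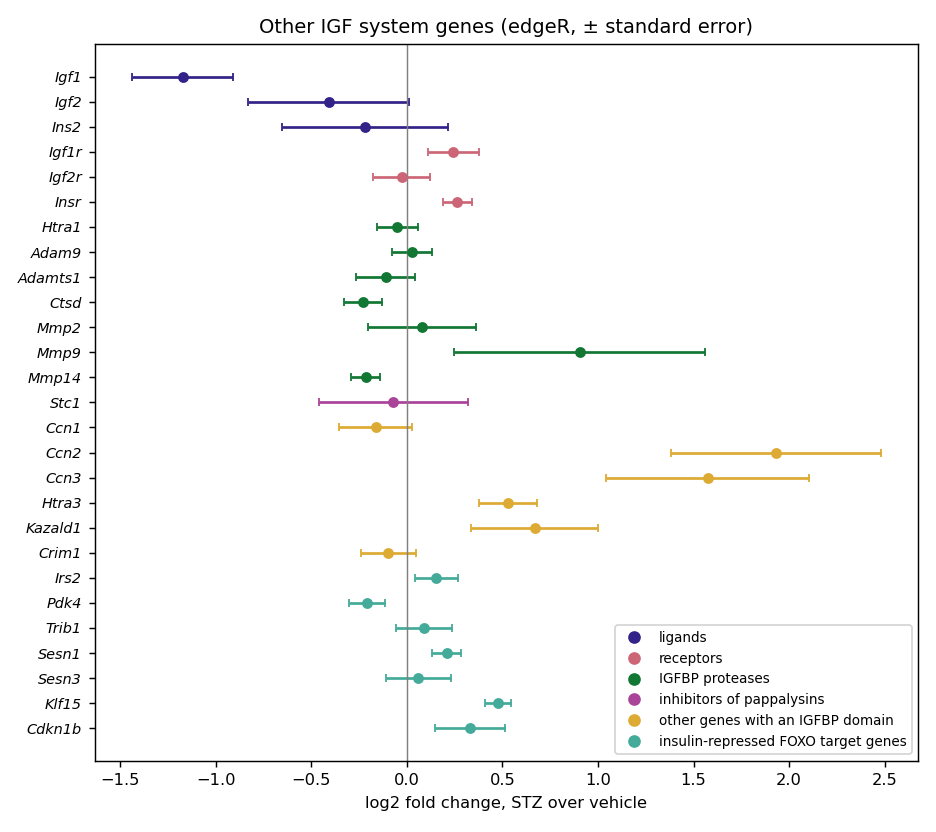
Log2 fold change of STZ over vehicle from edgeR with bars of 1 standard error for the 27 tested IGF system genes with a mean of at least 1 CPM, coloured by list. Igf1 lies lowest at -1.17, Ccn2 highest at 1.93, and Klf15 at 0.48 has the smallest error.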

How the data were processed

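RNA sequencing of sorted astrocytes was analysed for 3 vehicle and 3 STZ samples, grouped by the treatment in the sample labels. Members and gene lists were chosen with earlier results of these data known. The labels name the SMART-Seq mRNA kit, which amplifies poly(A) RNA from few cells and carries no molecular identifiers, so PCR copies count as reads. The submitters' processing notes list bcl2fastq 2.20.0, Trimmomatic 0.38, HISAT2 2.1.0, SAMtools 1.9 and StringTie 2.1.3b with the build mm10. The annotation and the use of strand in counting are not given in the sources used here. The counts deposited by the authors give the reads of each gene as whole numbers, not normalized. The deposited TPM values, made by the authors, are scaled by gene length to about 1000000 per sample, and the FPKM values deposited by the authors were not used further. A step of the study that removed outlier genes is not described and was not repeated.

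The test was edgeR's two-sided quasi-likelihood test (edgeR 4.0.16, R 4.3.3) after TMM normalization, with group as the only factor, on the 22337 genes counted at least 1 time in every sample and with Benjamini-Hochberg adjustment over all of them. Genes were called past a 1.5-fold difference with an adjusted p below 0.05. Alternatives were DESeq2 1.42.0 (Wald test), its size factors in edgeR, no filter, filterByExpr, the replicate number as a block, limma 3.58.1 on log2(TPM + 1) and log2(TPM + 0.1), no limit on the fold, and each sample left out. Leaving out each sample in DESeq2 and for the marker lists was added after the data were seen. Normalized CPM are counts over TMM-scaled library sizes. Scores are mean log2 CPM (prior count 2) of a list, and 10 pairs of a member and a list were compared by Pearson's r and Spearman's rho with exact two-sided permutation p over 720 orders. The named genes are all 8 members, every IGF system gene with a mean of at least 1 CPM, markers needed beside a member, and, for each member with such a mean, the 2 genes most like it. Genes matched RefSeq (GRCm38) by NCBI gene number, and promoters were those of the RefSeq table, found for 7 of 8 members. The tests were checked on simulated data, which did not model shifts in cell types shared by many genes. Samples are separate pools of mice, so p-values describe the spread between pools.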

Additional observations from a re-analysis of the deposited data

How the results depend on the processing

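All 7 tested members kept the direction of their difference under every alternative run, including each sample left out. The number of members past the edgeR threshold was 0 in each edgeR and limma setting (4 at an unadjusted p under 0.05 in the reported fit) and 1 with DESeq2, which called 3 without vehicle replicate 1 or 3, 2 without vehicle replicate 2, STZ replicate 1 or STZ replicate 3, and 1 without STZ replicate 2. For the IGF system genes it was 0 (9 at an unadjusted p under 0.05) and 1 with DESeq2 (3, 0 and 4 without vehicle replicates 1 to 3, and 0, 1 and 2 without STZ replicates 1 to 3). Over all genes edgeR called 5, DESeq2 234 (146 higher, 88 lower; 215, 127 and 696 without vehicle replicates 1 to 3, and 121, 135 and 365 without STZ replicates 1 to 3), limma 0 on log2(TPM + 1) and 0 on log2(TPM + 0.1) (2635 and 2612 at an unadjusted p under 0.05), and edgeR with a sample left out 0 to 1 (1704 to 2802 at an unadjusted p under 0.05). The cause was not tested. On log2(TPM + 1), which understates changes of low genes, Igfbp3 differed by 2.21, and on log2(TPM + 0.1) by 3.59. The fits with 1 sample left out pool the spread over the remaining samples. Of the 10 pairs of a member and a marker list, 4 had an adjusted Pearson p under 0.05 (5 on log2(TPM + 1), where Igfbpl1 and neuroblast markers passed at 0.0472) and 0 by Spearman's rho. The 4 include Igfbp3 with the endothelial score, a pair in which the member's groups do not overlap. They also include Igfbp7 with the pericyte and smooth muscle score, a pair in which the score's groups do not overlap. Igfbp2 and the fibroblast score reversed from 0.13 to -0.76 without the samples farthest from the median score. After removal of the group means, r reversed for Igfbp4 with the endothelial score (from -0.49 to 0.83), Igfbp4 with the fibroblast score (from -0.09 to 0.60) and Igfbp5 with the pericyte and smooth muscle score (from -0.78 to 0.46). At this depth Igfbp1 cannot be compared.

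The replicate number as a block left 0 genes called (1793 at an unadjusted p under 0.05) and 0 members, with an adjusted p of 0.586 for Igfbp3. The numbers did not pair the samples. Deviations of vehicle and STZ samples with the same number correlated at -0.10, -0.16 and -0.18, the pools hold different mice, and no sample correlated best with its own number.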
